A study of Mus musculus with 12 samples.

Results

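Klf2, Foxo1, Ccr7, S1pr1, S1pr4 and Cxcr4 are 6 genes of the circuit that sends CD4+ T cells into lymph nodes and out of them again, and their messenger RNA was measured in mouse CD4+ T cells with 12 Affymetrix GeneChip arrays of the whole mouse genome. Every probe set that the array's probe-gene table gives to one of these genes alone was taken, which gave 9 of 45101 probe sets and 6 of the 18193 genes with a probe set of their own. Foxo1 has 4 probe sets and each of the other 5 genes has 1: 1448890_at for Klf2, 1423466_at for Ccr7, 1448710_at for Cxcr4, 1423571_at for S1pr1 and 1451024_at for S1pr4. A gene measured by several probe sets is given by its brightest one unless said otherwise.

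The arrays fall into 4 groups of 3. The SKG group holds FR4- CD4+ T lymphocytes from lymph nodes of female SKG mice, a BALB/c background strain, at 40 weeks of age, stimulated with PMA and ionomycine. SKG mice carry a point mutation of Zap70, a kinase of T cell receptor signalling, and develop autoimmune arthritis. FR4, folate receptor 4, is a surface protein of regulatory T cells. The BALB group holds cells of female BALB/c mice of the same age and the same stimulation label. Its replicates 2 and 3 are FR4- CD4+ cells of lymph nodes, but replicate 1 is labelled as CD4+ cells of spleen and lymph nodes, with no FR4- selection, although the design text calls the BALB/c cells FR4- throughout. The IFNg KO transfer group holds CD4+ cells from the spleen of female RAG2 KO BALB/c mice, 7 weeks old, 7 days after they received CD4 T lymphocytes of IFNg KO BALB/c mice. In the IL-6 KO transfer group the donors were IL-6 KO BALB/c mice and the hosts IL-6 KO RAG2 KO BALB/c mice, at the same age and day, so that host and donor genotype change together. RAG2 KO hosts have no T or B cells of their own. The transfer labels name no stimulation, and no transfer of unmodified cells was analysed here. The design text compares SKG with BALB and one transfer with the other.

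As background, KLF2 is a zinc finger transcription factor of resting T cells that turns on the gene for the exit receptor S1PR1. FOXO1, which is held in the cytoplasm when AKT or SGK kinases phosphorylate it, drives Klf2, Ccr7 and the interleukin-7 receptor gene. CCR7 reads the chemokines of lymph node stroma and brings T cells in, S1PR1 and S1PR4 read sphingosine 1-phosphate, the lipid that draws lymphocytes back to lymph and blood, and CXCR4 reads CXCL12. Activated T cells lower this program and raise receptors for inflamed tissue.

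RefSeq's table of mouse promoters (GRCm38.p6) held 4 of the 6 genes, Klf2, Foxo1, Cxcr4 and S1pr4. The 250 bases before the start of Klf2, Foxo1 and Cxcr4 are shown, on the strand of each gene, because these genes fell together in SKG cells. They lie at chr8:72318812-72319061 on the plus strand (Klf2), chr3:52268087-52268336 on the plus strand (Foxo1) and chr1:128592300-128592549 on the minus strand (Cxcr4). Capitals mark the matches to the motifs searched.
Klf2: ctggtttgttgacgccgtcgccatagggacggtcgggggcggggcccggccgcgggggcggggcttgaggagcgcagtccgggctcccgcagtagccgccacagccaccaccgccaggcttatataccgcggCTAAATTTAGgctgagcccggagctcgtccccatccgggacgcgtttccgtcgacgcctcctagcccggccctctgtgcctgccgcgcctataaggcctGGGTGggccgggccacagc
Foxo1: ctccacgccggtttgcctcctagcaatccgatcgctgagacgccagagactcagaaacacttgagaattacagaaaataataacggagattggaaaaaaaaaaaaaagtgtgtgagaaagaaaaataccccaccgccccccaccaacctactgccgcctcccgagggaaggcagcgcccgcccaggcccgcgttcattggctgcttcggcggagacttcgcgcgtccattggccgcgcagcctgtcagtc
Cxcr4: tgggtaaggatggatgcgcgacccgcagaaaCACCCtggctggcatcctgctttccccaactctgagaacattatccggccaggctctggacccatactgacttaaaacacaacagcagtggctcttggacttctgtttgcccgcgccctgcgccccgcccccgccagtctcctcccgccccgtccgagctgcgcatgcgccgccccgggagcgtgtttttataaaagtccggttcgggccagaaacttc
Both strands were searched for a FOXO core (GTAAACA), a KLF core (CACCC) and the MEF2 motif, which is the site of factors that act on Klf2 downstream of the kinase ERK5. The Klf2 window held 1 MEF2 match on the plus strand, from base -118 to -109 counted from the start, and 1 KLF core on the minus strand, from -19 to -15. The Cxcr4 window held 1 KLF core, from -219 to -215, and the S1pr4 window held 1, from -107 to -103. No match overlapped another. No FOXO core lay in any of the 4 windows, nor any searched motif in that of Foxo1. Of all 32851 windows of this length, 3.17% held a FOXO core, 52% a KLF core and 2.92% a MEF2 match, so a KLF core is common. A match is a string of letters and no measured site.

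Levels are log2(intensity + 16) after the 12 arrays were normalized together, and a difference is in log2 units. The lowest level counted as measurable, the 40th percentile of all probe sets, was 4.73. T cell markers were present in every group, with Cd3d, a chain of the T cell receptor complex, at 10.72 ± 0.11 in SKG and 10.56 ± 0.16 in BALB (SD, n = 3). The summed intensity of the T cell markers, 7 of 8 measured, was lower in SKG (10532 to 11647) than in BALB (12026 to 12652), without overlap, and single markers differed in direction, with Cd3g at 10.78 and 9.72 and Cd5 at 11.15 and 12.11. Arrays did not all carry RNA of like quality. The 3′ to 5′ intensity ratio of actin was 1.93 to 2.63 in SKG and 2.95 to 3.98 in BALB, without overlap. That of Gapdh was 2.57 to 3.03 in SKG and 2.86 to 3.28 in BALB, with overlap. In the transfers, replicate 3 of each group stood apart, with a Gapdh ratio of 7.99 and 9.33 against 2.42 to 2.84 in the other 4 arrays. Between SKG and BALB, marker lists of other cells moved too. The summed intensity of the CD8 markers, of which 2 of 2 were measured, was 28.8 to 125 in SKG and 236 to 252 in BALB, and the Cd8b1 difference was -2.48 ± 0.43 (SE, adjusted p = 0.00355). Cd8a stood at 5.54 ± 0.42 in SKG and, in BALB, at the measurable limit (SD, n = 3). The summed intensity of the B cell markers, 8 of 9 measured, was 2891 to 6704 in SKG and 724 to 2507 in BALB. Ighm was by far the brightest of them, at 12.11 in SKG and 10.19 in BALB, and Cr2 was level (5.47 and 5.49). Of the 6 B cell markers tested in limma, 1 was higher and 0 lower at an adjusted p under 0.05. The 5 plasma cell markers summed to 6233 to 7532 in SKG and 2944 to 3743 in BALB, and 3 were higher and 0 lower by the same test. Xbp1 was the brightest (12.29 and 11.28), and Sdc1 went the other way (4.99 and 5.63). Stromal markers, 5 of 5 measured and most of them below the measurable level, summed to 62.0 to 78.8 in SKG and 89.9 to 97.2 in BALB. Of the B cell markers, 2 were below the measurable level in each of these groups. NK cell markers, 3 of 4 measured, summed to 137 to 854 in SKG and 116 to 169 in BALB, with overlap. The transfers were not free of other cells' markers either. Their neutrophil markers, 4 of 5 measured, summed to 99.1 to 251 in IFNg KO and 29.5 to 1255 in IL-6 KO. In SKG and BALB these summed to 35.3 to 43.6 and 40.2 to 58.0. The part of RNA quality and of these cells in the results was not tested. In bulk RNA, fewer cells that express a gene and less RNA per cell cannot be told apart.

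**Figure D1:**
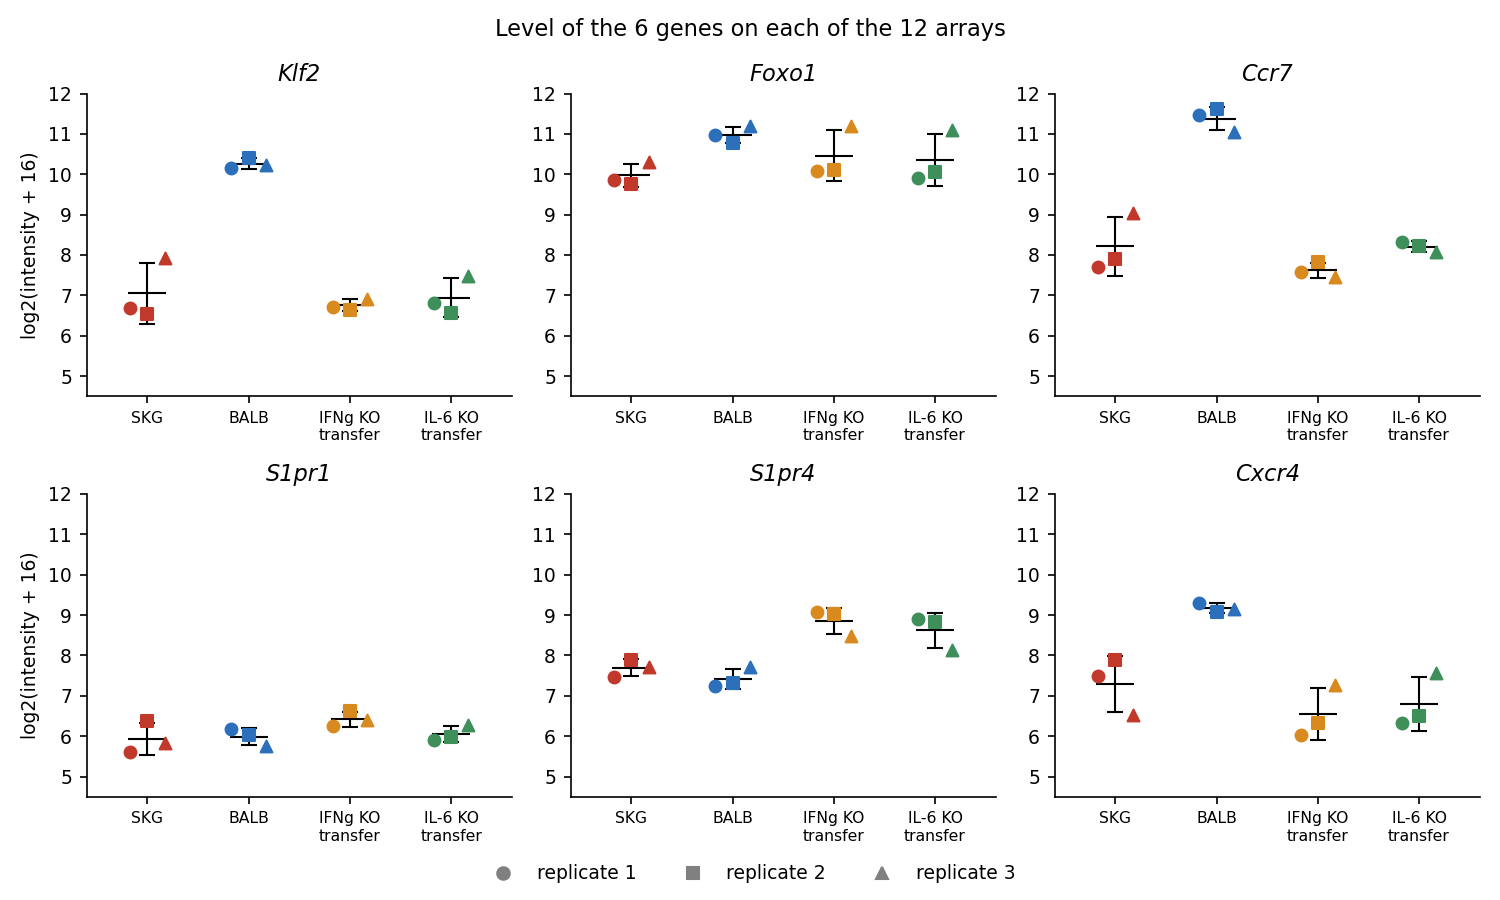
Level of Klf2, Foxo1, Ccr7, S1pr1, S1pr4 and Cxcr4 on each of the 12 arrays, as log2(intensity + 16) after joint normalization, by group, with symbols for replicates 1, 2 and 3 and bars for the mean and SD (n = 3). All 3 BALB arrays lie above all 3 SKG arrays for Klf2, Foxo1, Ccr7 and Cxcr4, while S1pr1 is level and S1pr4 is highest in the transfers.

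The first comparison sets SKG against BALB cells. Klf2, Ccr7, Cxcr4 and Foxo1 were lower in SKG, Klf2 and Ccr7 by about 9-fold, and the sphingosine 1-phosphate receptors S1pr1 and S1pr4 did not pass the test. Thus 4 of 6 members fell and 0 rose, in a comparison in which 11.8% of the 12073 genes tested were called lower and 27.5% were called in either direction (limma, Benjamini-Hochberg adjusted p under 0.05 over all genes). The same 4 genes had groups that did not overlap, with the SKG arrays lower, as 18.4% of all genes tested did. The median difference of the 6 genes was -1.44, beside 0.06 over all genes tested. The 6 genes were chosen with earlier results of these data known, so their counts and medians, here and below, describe and support nothing.

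Klf2 stood at 6.69, 6.55 and 7.92 in SKG replicates 1, 2 and 3 and at 10.14, 10.41 and 10.22 in the BALB replicates. The highest SKG array lay more than 2 log2 units below the lowest BALB array. The fitted difference was -3.22 ± 0.32 (SE), which is 9.33-fold lower in SKG, with adjusted p = 0.000342. It ranked 10 from the lowest among the genes tested, 13 of which (0.108%) were called and lower by at least 3 log2 units. The deposited intensities of this probe set ran from 76.1 to 1459 over the 12 arrays. SKG replicate 3 was the highest of its group, and without it the difference was -3.63.

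Foxo1, the factor that drives Klf2 and Ccr7, stood at 9.85, 9.76 and 10.30 in SKG and at 10.96, 10.77 and 11.19 in BALB. All SKG arrays were lower, and the gap between the groups was narrower than for the other 3 genes that fell. The difference was -1.0 ± 0.18, or 2.0-fold lower, with adjusted p = 0.00386. Genes called and lower by at least 1 log2 unit made up 5.17% of those tested.

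The lower level of Foxo1 was seen with each probe set bright enough to be tested. The difference was -1.52 ± 0.21 for 1416981_at (adjusted p = 0.00161), -1.30 ± 0.22 for 1416982_at (adjusted p = 0.00350) and -1.0 ± 0.18 for the brightest, 1416983_s_at (adjusted p = 0.00472), in a fit of all probe sets of the array in which 9.89% were called lower. The fourth, 1456529_at, had deposited intensities between 1.4 and 18.2 over the 12 arrays and lay below the measurable level in both groups. In Affymetrix naming, the letter s marks a probe set whose probes are shared by several transcripts. The 3 measured probe sets moved the same way.

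Ccr7, the receptor for entry into lymph nodes, stood at 7.71, 7.89 and 9.05 in SKG and at 11.46, 11.61 and 11.06 in BALB. The 3 SKG arrays were again all lower, and replicate 3 was again the highest of them. The difference was -3.19 ± 0.33, or 9.11-fold lower, with adjusted p = 0.000383 and rank 11 from the lowest, directly after Klf2. Over the replicate numbers, SKG minus BALB was -3.78, -3.75 and -2.03.

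Cxcr4, the receptor for the stromal chemokine CXCL12, stood at 7.48, 7.88 and 6.54 in SKG and at 9.30, 9.07 and 9.15 in BALB. Here SKG replicate 3 was the lowest of its group, where for Klf2, Foxo1 and Ccr7 it was the highest. The difference was -1.88 ± 0.30, or 3.68-fold lower, with adjusted p = 0.00254.

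S1pr1, the exit receptor and a known KLF2 target, was dim on every array, with deposited intensities from 29 to 88.6. Its level was 5.60, 6.38 and 5.83 in SKG and 6.19, 6.03 and 5.76 in BALB. The groups overlapped, and the difference of -0.06 ± 0.24 (adjusted p = 0.898) changed sign without SKG replicate 1 (0.11) or BALB replicate 1 (0.04). At this brightness the constant added before taking logs makes a change look smaller than it is.

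S1pr4, a receptor for the same lipid found on blood cells, stood at 7.47, 7.89 and 7.72 in SKG and at 7.24, 7.31 and 7.71 in BALB. The groups overlapped, and the difference of 0.27 ± 0.19 did not pass (adjusted p = 0.348).

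**Figure D2:**
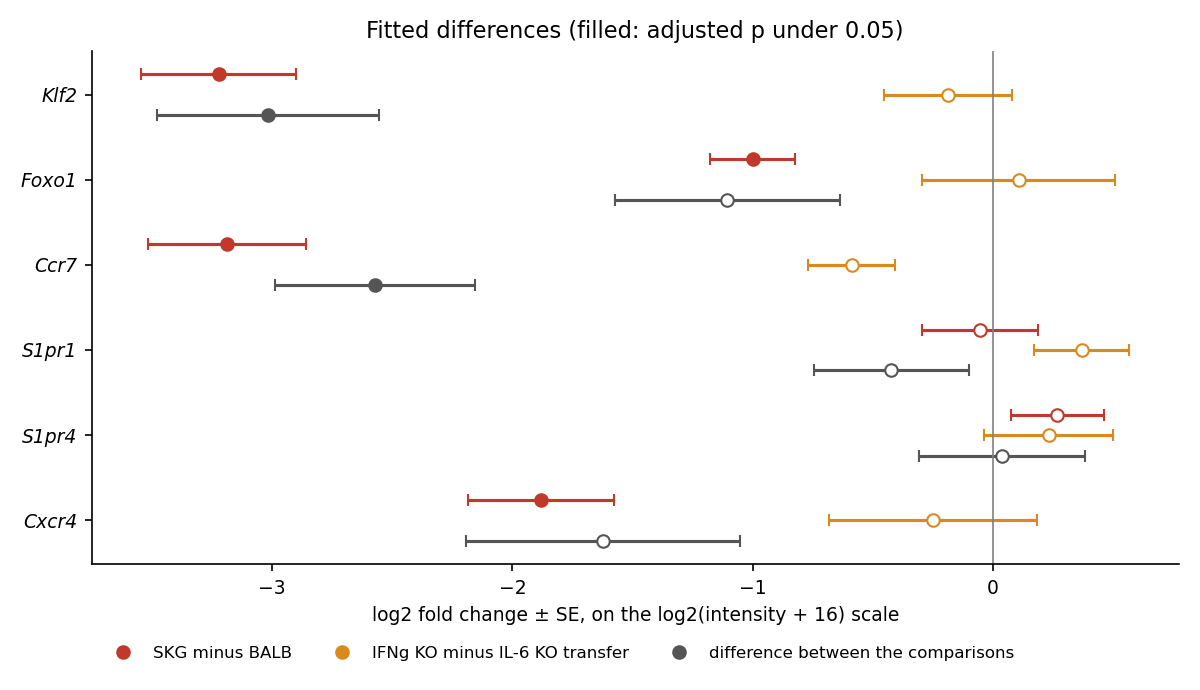
Fitted log2 fold change with its SE for each of the 6 genes in SKG minus BALB, in IFNg KO minus IL-6 KO transfer, and as the difference between these comparisons, with filled points where the adjusted p was under 0.05. Klf2 (-3.22), Ccr7 (-3.19), Cxcr4 (-1.88) and Foxo1 (-1.0) are filled in the first comparison, none in the second, and Klf2 and Ccr7 in the difference.

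The 4 calls held without any single array and under every other setting tried. This includes leaving out BALB replicate 1, the array with the other preparation, without which Klf2 differed by -3.27, Ccr7 by -3.14, Cxcr4 by -1.81 and Foxo1 by -1.01 (adjusted p from 0.00248 to 0.0191). Nothing in the labels says whether the replicates came from separate animals, so each p-value is set against a spread between arrays that may be technical only.

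The second comparison sets IFNg KO transferred cells against IL-6 KO transferred cells. None of the 6 genes passed in limma (0 of 6, of which 1 had an unadjusted p under 0.05), in a comparison in which 0.114% of 12262 genes tested were called. The median difference was -0.04, beside 0.00 over all genes, and the members' own differences ran from -0.59 to 0.37.

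Ccr7 had the lowest unadjusted p. It stood at 7.59, 7.82 and 7.45 in IFNg KO and at 8.33, 8.21 and 8.07 in IL-6 KO transfers, so that all IFNg KO arrays were lower, as in 4.53% of the genes tested. The difference was -0.59 ± 0.18, with an unadjusted p of 0.0131 and an adjusted p of 0.837. With replicate 3 of every group left out, an alternative added after the values were seen, it was -0.57 with adjusted p = 0.0377.

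The other 5 genes overlapped between the transfers. Klf2 stood at 6.72, 6.63 and 6.92 in IFNg KO and at 6.80, 6.56 and 7.47 in IL-6 KO transfers, a difference of -0.19 ± 0.27. Foxo1 stood at 10.08, 10.11 and 11.20 in IFNg KO and at 9.91, 10.07 and 11.09 in IL-6 KO transfers, a difference of 0.11 ± 0.40. The third array of each group, the one with the high Gapdh ratio, gave the highest Foxo1 level.

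In the IL-6 KO group each of the 3 measurable Foxo1 probe sets was highest on the third array, and in the IFNg KO group the brightest one alone was. Against the mean of replicates 1 and 2, the brightest probe set was higher by 1.10 in both groups. Probe set 1416981_at was higher by 0.04 in IFNg KO and by 0.65 in IL-6 KO cells, and 1416982_at differed by -0.03 and 0.78. Cxcr4 was also highest on these arrays, with 6.03, 6.33 and 7.28 in IFNg KO and 6.33, 6.50 and 7.56 in IL-6 KO transfers, a difference of -0.25 ± 0.43. The part of RNA quality in these values was not tested.

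**Figure D3:**
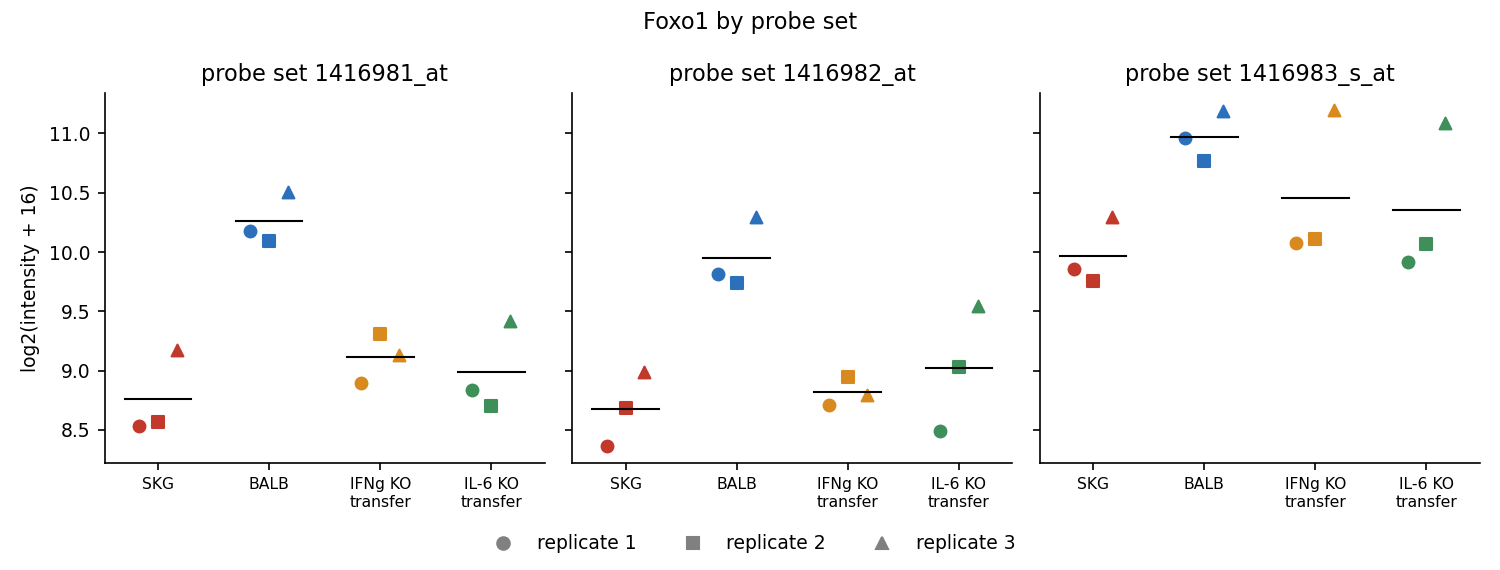
Level of Foxo1 by each of its 3 measurable probe sets on the 12 arrays, as log2(intensity + 16), with symbols for replicates and a line at the mean of each group of 3. Each probe set is lower in every SKG array than in every BALB array, and the replicate 3 arrays of the transfers stand 1.10 above the others in both groups with 1416983_s_at, and above them by 0.65 and 0.78 in the IL-6 KO group with the other probe sets.

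S1pr1 stood at 6.25, 6.62 and 6.40 in IFNg KO and at 5.89, 5.98 and 6.29 in IL-6 KO transfers, a difference of 0.37 ± 0.20. S1pr4 stood at 9.07, 9.02 and 8.49 and at 8.91, 8.83 and 8.13, a difference of 0.23 ± 0.27. Here the third arrays were the lowest of their groups.

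Whether a gene changed by different amounts in the comparisons was tested on all 12 arrays. The comparisons also differ from each other in age, tissue, stimulation label and transfer, whose parts in such a difference cannot be told apart. Klf2 and Ccr7 differed, so that 2 of 6 members were called, both lower, where 3.34% of 12176 genes tested were called lower and 8.2% in either direction. The difference between the changes was -3.02 ± 0.46 for Klf2 (adjusted p = 0.00262) and -2.57 ± 0.41 for Ccr7 (adjusted p = 0.00358). It was -1.62 ± 0.57 for Cxcr4 (adjusted p = 0.106) and -1.11 ± 0.47 for Foxo1 (adjusted p = 0.180). With the replicate number as a block these passed too (adjusted p = 0.00305 and 0.000199), which made 4 of 6 members where 10.3% of all genes were called lower. They also passed without IL-6 KO replicate 3 alone, at -2.0 (adjusted p = 0.0283) and -1.46 (adjusted p = 0.0323). S1pr1 (-0.42 ± 0.32) and S1pr4 (0.04 ± 0.35) did not pass. Of 99 other genes of the circuit tested, 4 were called higher and 9 lower, where 592 and 407 of all genes were. With the block 20 and 30 were, where 1861 and 1258 of all 12176 genes were. The 30 include Selplg (-0.84, adjusted p = 0.0653 and 0.00607), Pik3r1 (-0.75, adjusted p = 0.102 and 0.0159) and Sesn1 (-0.85, adjusted p = 0.118 and 0.00517).

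Set in order of the group means, Klf2 ran from BALB (10.26) through SKG (7.05) and IL-6 KO transfers (6.94) to IFNg KO transfers (6.76), and only BALB and SKG did not overlap as neighbours. Ccr7 had the same order, from 11.37 through 8.22 and 8.20 to 7.62, with gaps between BALB and SKG and between the transfers. Cxcr4 did as well, from 9.17 through 7.30 and 6.79 to 6.54, with a gap after BALB alone. For Foxo1 the order was BALB (10.97), IFNg KO (10.46), IL-6 KO (10.36) and SKG (9.97), and no neighbours were apart. S1pr1 spanned only 0.49 between its highest and lowest group means.

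S1pr4 ran in another order and was highest in the transfers, at 8.86 ± 0.32 in IFNg KO and 8.62 ± 0.43 in IL-6 KO, against 7.69 ± 0.21 in SKG and 7.42 ± 0.25 in BALB (SD, n = 3), and every transfer array lay above every other array. Age, tissue, stimulation label and transfer all differ between these pairs of groups and cannot be told apart, so no test was made.

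Other genes of the circuit were read from 9 lists. The lists and their members were chosen with earlier results of these data known, so their counts describe and support nothing. Of 98 genes tested in SKG against BALB, 19 were higher and 33 lower, where 15.8% and 11.8% of all genes tested were. The replicate block raised these counts to 22 and 39. It also raised the calls over all 12073 genes tested from 3324 to 4174, of which 57.5% were higher.

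Among the regulators of FOXO factors and their relatives, 5 of 13 tested genes fell, 2 rose and 6 did not pass, with a median of -0.19. Foxo3, a close relative of Foxo1, fell from 8.86 ± 0.17 in BALB to 7.15 ± 0.02 in SKG (SD, n = 3), a difference of -1.71 ± 0.16 (adjusted p = 0.000246). Sgk1, a kinase that phosphorylates FOXO factors, fell by 2.03 ± 0.13 (adjusted p = 5.15e-05). Pik3r1, a regulatory subunit of the lipid kinase upstream of AKT, fell by 1.22 ± 0.16 (adjusted p = 0.000995). The 2 that rose, named after their values were seen, were the kinase genes Akt1 (0.94) and Akt2 (0.74). One of them was lost without SKG replicate 2, BALB replicate 1 or BALB replicate 3, which left 1, and both with the median of the probe sets, which left 0 in limma.

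Of other known FOXO targets, 8 of 11 fell and 1 rose, with a median of -1.11, the lowest of the 9 lists. Gadd45a, a stress response gene, fell by 1.88 ± 0.22 (adjusted p = 0.000619) and Sesn1, a sestrin of the same response, fell by 1.15 ± 0.20 (adjusted p = 0.00348). Il7r, the interleukin-7 receptor and a FOXO1 target in resting T cells, went the other way, from 9.19 ± 0.23 in BALB to 10.77 ± 0.09 in SKG, by 1.57 ± 0.15 (adjusted p = 0.000317). Fitted on all 12 arrays at once, 5 of these genes were called lower.

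Of other Krüppel-like factors, relatives of KLF2, 5 of 9 fell and 0 rose in limma, with 1 rise called without SKG replicate 3 and a median of -0.76. With the replicate block 7 fell. Klf10 fell by 2.25 ± 0.25 (adjusted p = 0.000521), Klf11 fell by 1.26 ± 0.18 (adjusted p = 0.00138) and Klf4, known to restrain T cell proliferation, fell by 1.20 ± 0.24 (adjusted p = 0.00674), a call that Klf4 lost when all 12 arrays were fitted at once. Klf3 differed by -0.60 (adjusted p = 0.0625, and 0.0126 with the replicate block) and Klf6 by 0.42 (adjusted p = 0.249).

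Among genes that act on Klf2 or on its protein, 4 of 9 fell and 2 rose, with a median of -0.56. Hdac5, a deacetylase that holds MEF2 factors inactive, fell by 1.30 ± 0.18 (adjusted p = 0.00138). Wwp1, a ubiquitin ligase that marks KLF2 for breakdown, rose by 0.90 ± 0.19 (adjusted p = 0.00842). Hdac7, of the same family as Hdac5, differed by -0.80 (adjusted p = 0.0155) and was lost without SKG replicate 1, BALB replicate 1 or BALB replicate 2, and in the fit of all 12 arrays. The counts rested on single arrays: 1 gene was lower without SKG replicate 1 or BALB replicate 1 and 2 without BALB replicate 2, and 1 was higher without any one array but SKG replicate 3.

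In the sphingosine 1-phosphate pathway, 1 of 8 tested genes fell and 1 rose, with a median of -0.19. Sgpl1, the lyase that breaks the lipid down, fell by 0.92 ± 0.15 (adjusted p = 0.00252). S1pr3 rose by 0.93 (adjusted p = 0.0345) from a level near the measurable limit, 4.92 in BALB, and was lost without any one array but SKG replicate 3. Without SKG replicate 3, 3 genes were lower, and with the replicate block 2 were. S1pr2 differed by -0.30 (adjusted p = 0.247), and S1pr5 lay below the measurable level. Cd69, the activation antigen that pulls S1PR1 off the cell surface, was at 12.78 ± 0.13 in SKG and 13.03 ± 0.08 in BALB, a difference of -0.25 that did not pass (adjusted p = 0.0720, and 0.0269 with the replicate block). It passed as well with array weights and without SKG replicate 3 or replicate 3 of every group.

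Among other genes for entry into lymph nodes and stay there, 3 of 8 rose and 1 fell, with a median of 0.16. Selplg, the selectin ligand PSGL-1, fell by 0.90 ± 0.19 (adjusted p = 0.00932). Itgal, a chain of the integrin LFA-1, differed by 1.15 (adjusted p = 0.0134) and Cxcr5, the receptor for the follicle, by 1.15 (adjusted p = 0.0264). Neither passed without SKG replicate 1, and Cxcr5 was also lost without SKG replicate 2, BALB replicate 1 or BALB replicate 2. Itgal did not pass with the median of the probe sets either, nor Cxcr5 without the filter on dim genes or with all 12 arrays in a single fit. Without SKG replicate 1, 0 genes rose in limma, and 1 rose without SKG replicate 2, BALB replicate 1 or BALB replicate 2. Without SKG replicate 3, 2 fell.

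Of the genes that carry chemoattractant signals inside the cell, 3 of 18 rose and 2 fell, with a median of 0.04, beside 0.06 over all genes tested. Rac2, a GTPase of blood cell movement, rose by 1.22 ± 0.21 (adjusted p = 0.00332) and Grk6, a kinase that desensitizes receptors such as CXCR4, by 0.80 ± 0.15 (adjusted p = 0.00469). The Rac2 call was lost with the median of the probe sets and that of Grk6 without normalization. Stk4, a kinase needed for T cell trafficking, differed by -0.89 (adjusted p = 0.0131) and was lost without normalization and without SKG replicate 1, when 0 genes fell in limma. Without any other single array but SKG replicate 3, 1 fell. With the replicate block 6 rose and 3 fell.

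The receptors for inflamed tissue went the other way from Ccr7 and Cxcr4. Of 9 tested, 6 rose and 0 fell in limma, with a median of 1.68, the highest of the lists, and 1 fell without BALB replicate 3 or with the replicate block. Cxcr6 was at 11.98 ± 0.42 in SKG and 8.31 ± 0.31 in BALB, and rose by 3.67 ± 0.23 (adjusted p = 5.15e-05). Ccr6, a receptor of Th17 cells, rose by 2.92 ± 0.19 (adjusted p = 5.15e-05) and Cxcr3, a receptor of Th1 cells, by 2.46 ± 0.22 (adjusted p = 0.000216).

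Of early activation genes, 7 of 14 fell and 1 rose, with a median of -0.37. Nr4a1, an orphan nuclear receptor induced by the T cell receptor, fell by 1.17 ± 0.09 (adjusted p = 0.000117). The AP-1 genes Fosb fell by 1.94 ± 0.22 (adjusted p = 0.000521) and Fos fell by 1.26 ± 0.17 (adjusted p = 0.00124). The gene that rose, named after its value was seen, was Egr1 (0.88). Il2, the cytokine gene that PMA and ionomycine induce, was at 13.34 in SKG and 13.21 in BALB and did not pass (0.13, adjusted p = 0.203). Fitted on all 12 arrays at once, 3 of these genes were called lower and 0 higher in limma, and the call of Fos was lost. With the replicate block 9 were called lower and 1 higher. Over all alternatives, 3 to 10 were called lower.

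**Figure D4:**
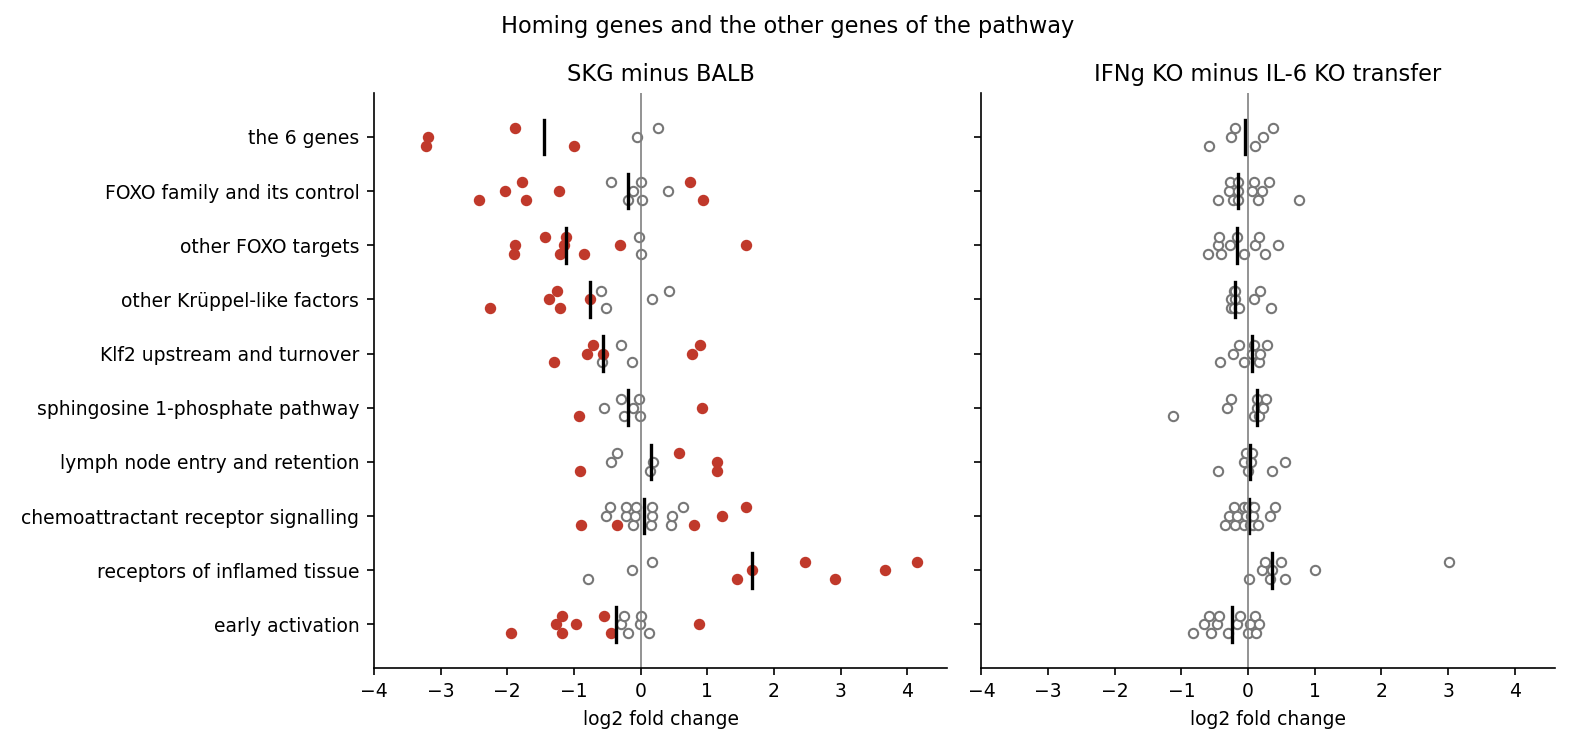
Log2 fold change of the 6 genes and of the genes of the 9 lists in SKG minus BALB and in IFNg KO minus IL-6 KO transfer, with filled points where the adjusted p was under 0.05 and a bar at each list's median. In SKG the 6 genes (median -1.44) and other FOXO targets (-1.11) lie to the left and the receptors of inflamed tissue (1.68) to the right, and no point is filled in the transfers.

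Between the transfers, 0 of 100 genes of these lists passed in limma, and 5 had an unadjusted p under 0.05. Those named by their p were Cited2 (0.45, adjusted p = 0.743) and Gadd45a (-0.60, adjusted p = 1) among FOXO targets, Sphk1 (-1.13, adjusted p = 0.957), a kinase that makes sphingosine 1-phosphate, and the receptor genes Ccr6 (3.02, adjusted p = 0.400) and Cxcr3 (0.55, adjusted p = 1). With the replicate block, which gave calls in 1.79% of all genes tested, 5 rose and 5 fell. Of the falls, 4 were early activation genes, among them Nr4a1 (-0.44, adjusted p = 0.0226) and Fos (-0.66, adjusted p = 0.0304), with an adjusted p = 1 without the block, and the other was Sphk1 (adjusted p = 0.0169). Cited2 (adjusted p = 0.0485), Ccr6 (adjusted p = 0.00185) and Cxcr3 (adjusted p = 0.0209) were among the rises.

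The genes most like each member were those with the smallest mean absolute difference from it over the 12 arrays, after centring, among 11432 genes tested in both comparisons. For Klf2 these were Atp1b1 (0.26), a subunit of the sodium pump, Ctsl (0.27), the protease cathepsin L, and Dnajb4 (0.28), a co-chaperone. Ccr7 came next in rank 4 at 0.28, and seen from Ccr7, Klf2 was nearer than any other gene. After it came Zcchc12 (0.29), Pard6g (0.32) and Ets2 (0.36), a transcription factor. The closeness of Klf2 and Ccr7 rests on the same 12 arrays and on the height of the BALB group in both, and is a description.

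Cxcr4 was nearest to Mxd1 (0.28), a partner of MAX, Maff (0.28), a small MAF factor, and Jun (0.30), a part of AP-1. Of the members, Klf2 was its nearest, at rank 507. Foxo1 was nearest to Unc45a (0.13), Ddx31 (0.13) and Cox7a2l (0.14), and Klf2 stood at rank 10918 from it. Centred levels are compared, so a gene of small span such as Foxo1 lies far from one of wide span even where both fall. S1pr4 was nearest to Pold4 (0.11), Polr2i (0.12) and Rnh1 (0.13). S1pr1 spanned less than 1 log2 unit and was not compared in this way.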

How the data were processed

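Per the labels' protocols, RNA was extracted with RNeasy kits and a biotin label was added during in vitro transcription. The deposited values are linear intensities, 1 per probe set and array. Which software and normalization made them is not given in the sources used here. Arrays do not count molecules, so their number limits the precision.

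Of 45101 probe sets, 64 controls were left out. The probe-gene table names 1 gene for 34945 probe sets, several for 932 and does not list 9211. For 34741 probe sets the symbol was taken from RefSeq (GRCm38.p6) through the gene ID, whether or not this changed it. The deposited intensities were turned into log2(intensity + 16) and quantile normalized within the 6 arrays of a comparison, or over all 12 for levels and for the difference between comparisons. A fold change on this scale understates the change of dim genes. Each gene was read by its brightest probe set (mean of 12 arrays). It was tested where that probe set's mean over the arrays of the fit was no lower than the 40th percentile over the whole array. Fits used limma 3.58.1 in R 4.3.3 (lmFit, then eBayes with its trend option, two-sided, Benjamini-Hochberg over all genes tested, called under 0.05), and were checked on simulated data.

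The labels give all groups the same replicate numbers. Same-numbered arrays of the compared groups deviated together (correlations of 0.13, 0.20 and 0.33 in SKG and BALB, and 0.46, 0.45 and 0.70 in the transfers). Unlike numbers 1 and 2 deviated together as well (0.17 and 0.17, and 0.44 and 0.41), so this is mostly replicate 3 against the rest. The main fits used no pairing. The numbers were treated as pairs only in the alternative called the replicate block, on the data and not on a stated design. The text gives block values beside members whose call they alter. For the lists in SKG against BALB it gives block counts where they differ, and for single list genes only some block values. In the difference between comparisons, calls of list genes with the block are given as counts.

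The members and lists were chosen with earlier results of these data known. Named are all members, the 3 genes of each list with the smallest p in each comparison where a paragraph uses them, a fixed set (Il7r, Cd69, Foxo3, S1pr2, S1pr5, Klf3 and Klf6), and the 3 genes most like each member whose group means span at least 1. Alternatives were other added constants, filters, normalizations, probe set rules, variance models and sets of arrays, the replicate block, and leaving out arrays. Promoters were searched with a script over RefSeq's table.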

Additional observations from a re-analysis of the deposited data

Results flagged for a closer look

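A result is listed here where the change between SKG and BALB and the change between the transfers differed by the test on all 12 arrays (limma, Benjamini-Hochberg adjusted over all genes). This held for 20 of the 67 named genes tested, while 8.2% of all genes tested were called. The named genes were partly picked for their p-values in the comparisons that enter this test, so the share shows nothing about them. Each value below is the change in SKG minus BALB less the change in IFNg KO minus IL-6 KO transfer, in log2 units. Age, tissue, stimulation label and transfer differ between the comparisons, and their parts in these values cannot be told apart.

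Among the members, the value was -3.02 for Klf2 and -2.57 for Ccr7. Both were called under every alternative tried.

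Among regulators and relatives, it was -2.35 for Sgk1, -1.56 for Foxo3, -2.08 for Klf10 and -1.26 for Hdac5, and these 4 held without any single array. It was -1.14 for Klf11 and -1.11 for Klf7, lost without 6 and 5 of the 12 arrays in turn. Without normalization the calls of Hdac5, Klf11 and Klf7 were lost, and that of Klf11 also without the filter on dim genes. Klf7 had passed in SKG against BALB at -0.76 (adjusted p = 0.0112), a call lost without SKG replicate 2 or BALB replicate 1, without normalization and with the median of the probe sets.

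Among targets and pathway enzymes, it was 1.97 for Il7r, -1.31 for Gadd45a, -1.17 for Sgpl1 and 1.26 for Rac2. These were lost without 8, 10, 1 and 8 of the 12 arrays in turn. Without normalization Sgpl1 and Rac2 were lost, and without the filter on dim genes Il7r, Gadd45a and Rac2. Rac2 was lost as well with the median of the probe sets and without the trend option. Receptors of inflamed tissue gave 3.38 for Cxcr6 and 1.88 for Cxcr3, which held without any single array. Ccr6, which passed in SKG against BALB (2.92) and not in the transfers (3.02, adjusted p = 0.400), gave -0.11 (adjusted p = 0.953) and was not called.

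Among the genes most like a member, which were chosen on the same arrays, it was -3.22 for Atp1b1, -2.95 for Ctsl, -2.65 for Dnajb4, -2.91 for Zcchc12, -2.28 for Pard6g and -2.11 for Ets2. Atp1b1 was lost without SKG replicate 2 and the other 5 held without any single array.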

How the results depend on the processing

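The 4 calls of SKG against BALB held in each of 20 alternatives, from -3.65 to -2.81 for Klf2, -3.73 to -2.94 for Ccr7, -2.18 to -1.50 for Cxcr4 and -1.41 to -0.89 for Foxo1 (largest adjusted p = 0.0437). The replicate block left these 4 and the 0 of the transfer comparison as they were. In the difference between the comparisons, 2 members passed, and 4 with array weights, with the replicate block, without IL-6 KO replicate 3 and without replicate 3 of every group, so that leaving out 1 array gave 2 to 4. Foxo1 joined Klf2 and Ccr7 when the median over its probe sets was used (-1.35, adjusted p = 0.0287). In the transfer comparison 0 members passed, and 1, Ccr7, without replicate 3 of every group. Of neighbouring groups in the order of levels, 5 of 18 were apart, and 4 without normalization.

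Signs of members turned only for values that did not pass. With 1 array left out, S1pr1 in SKG against BALB ran from -0.28 to 0.11. In the transfers, Klf2 ran from -0.38 to 0.081, Foxo1 from -0.26 to 0.46, Cxcr4 from -0.63 to 0.14 and S1pr4 from -0.011 to 0.41, and the S1pr4 difference between the comparisons ran from -0.15 to 0.28. Foxo1 in the transfers also turned to -0.030 without normalization and to -0.035 with the median of probe sets, and Klf2 to 0.031 with array weights. The causes were not tested.

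Counts over all genes moved more. SKG against BALB gave 1902 higher and 1422 lower genes, but 1131 and 829 without normalization, 2918 and 2208 with array weights, and 1114 and 885 without SKG replicate 1. The transfers gave 8 and 6, but 95 and 124 with the replicate block, 97 and 92 with array weights, 263 and 242 without replicate 3 of every group, and 22 higher when all 12 arrays were fitted at once. The difference gave 592 and 407, but 1861 and 1258 with the block and 282 and 156 without normalization. No alternative moved the median of all genes by over 0.1. Low signal over background limits S1pr1 and the fourth Foxo1 probe set.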
